A study of Mus musculus with 41 samples.

Results

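The genes described here are 10 chemokine ligands, taken by symbol from a list of 10 names (Ccl2, Ccl3, Ccl4, Ccl5, Ccl6, Ccl9, Ccl12, Cxcl10, Cxcl14 and Cxcl16) out of the 24015 genes of the deposited table. All 10 were found, and all 10 passed the filter on low values in each fit. The list was chosen with earlier results of these data known. Their levels are described in cerebellar microglia, macrophages that live in brain tissue.

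RNA was sequenced from microglia sorted as CD11b+ Tmem119+ cells from perfused cerebella. NPC mice (strain BALB/cNctr-Npc1m1N/J) carry a mutation of Npc1, the lysosomal cholesterol transporter lost in Niemann-Pick type C disease, in the cells of the whole body, and WT mice were balb/c. Untreated NPC and WT mice were taken at 1, 3, 6 and 9 weeks of age, with 4 libraries in each group except NPC at 9 weeks, which had 3. A treatment arm held 5 libraries from NPC mice that received PLX5622, which blocks Csf1r, the growth factor receptor that keeps microglia alive, and 5 from NPC mice of a control group. Both groups of this arm were 9 weeks old and carry the Npc1 mutation. The dose and duration of PLX5622 are not given in the labels, and the cells measured after PLX5622 are those still present for sorting. Libraries bear letters A to D, or numbers 1 to 5 in the PLX5622 arm, and per-library values below follow that order.

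Chemokines are small secreted proteins that bind G protein-coupled receptors on leukocytes and steer their migration. In the mouse Ccl2 and Ccl12 are ligands of Ccr2, the receptor that draws monocytes out of the circulation, while Ccl3, Ccl4 and Ccl5 attract macrophages and T cells. Cxcl10 is an interferon-induced ligand of Cxcr3, a receptor of activated T cells, while Cxcl16 is made as a membrane-bound protein and binds Cxcr6. Ccl6 and Ccl9 are ligands of Ccr1 found in rodents, and Cxcl14 is produced by many resting epithelia and by neurons and glia.

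Of the 10 genes, 8 lie on chromosome 11 (Ccl2, Ccl3, Ccl4, Ccl5, Ccl6, Ccl9, Ccl12 and Cxcl16), while Cxcl10 lies on chromosome 5 and Cxcl14 on chromosome 13. The bases directly before the RefSeq start of 5 of the genes are shown, because 3 of them (Cxcl10, Ccl12 and Ccl3) were higher in NPC than in WT microglia from 3 weeks on and 2 (Ccl9 and Ccl6) were not. Sequences are from RefSeq with build GRCm38.p6 and are written in the direction of the gene, ending at the base before its start. The regions are chr5:92348890-92349139 (minus strand) for Cxcl10, chr11:82101695-82101844 (plus strand) for Ccl12, chr11:83649379-83649528 (minus strand) for Ccl3, chr11:83578637-83578786 (minus strand) for Ccl9 and chr11:83593088-83593237 (minus strand) for Ccl6. Capitals mark matches, on either strand, to the TATA box (TATAAA), to the core of the interferon-stimulated response element (GAAANNGAA) and to the kB site, the consensus bound by NF-kB.
Cxcl10: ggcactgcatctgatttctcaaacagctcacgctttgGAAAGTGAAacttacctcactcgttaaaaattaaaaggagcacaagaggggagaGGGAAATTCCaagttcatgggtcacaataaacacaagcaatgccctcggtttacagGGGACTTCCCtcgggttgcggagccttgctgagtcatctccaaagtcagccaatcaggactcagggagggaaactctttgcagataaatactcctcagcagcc
Ccl12: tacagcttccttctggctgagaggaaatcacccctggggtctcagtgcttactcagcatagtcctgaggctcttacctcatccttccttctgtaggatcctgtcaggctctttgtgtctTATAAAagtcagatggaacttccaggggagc
Ccl3: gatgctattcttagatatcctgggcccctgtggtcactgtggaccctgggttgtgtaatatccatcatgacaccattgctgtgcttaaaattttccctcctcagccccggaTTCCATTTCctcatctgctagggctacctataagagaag
Ccl9: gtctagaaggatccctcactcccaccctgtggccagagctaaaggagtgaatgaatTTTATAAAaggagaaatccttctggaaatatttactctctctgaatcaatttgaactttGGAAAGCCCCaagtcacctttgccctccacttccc
Ccl6: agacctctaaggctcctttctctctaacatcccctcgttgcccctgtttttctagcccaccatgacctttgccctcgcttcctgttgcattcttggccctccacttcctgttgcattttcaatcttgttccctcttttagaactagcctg
The Cxcl10 sequence held 1 match to the interferon element core, 213 to 205 bases before the start, and 2 to the kB site, at 159 to 150 and 103 to 94 bases. Ccl12 held a TATA box 31 to 26 bases before its start. Ccl3 held an interferon element core on the opposite strand at 39 to 31 bases, and Ccl9 held a kB site on the opposite strand at 35 to 26 bases beside TATA boxes on both strands that overlap each other at 94 to 87 bases. A further Ccl9 TATA box at 224 to 219 bases lies outside the letters shown. No match was found in the Ccl6 letters. Among 32851 RefSeq promoter windows of 250 bases, 12.4% held the TATA box, 7.13% the interferon element core and 3.90% the kB site. The RefSeq table held 6 of the 10 promoters, without those of Ccl2, Ccl4, Ccl5 and Cxcl16. The promoter of Cxcl14, a gene that did not pass between genotypes, is not printed. It held 1 interferon element core, 172 to 164 bases before its start. Each promoter was searched over 250 bases, of which Cxcl10 is printed in full and the others over 150. The part of these matches in the levels was not tested.

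The 41 libraries held 23.2 M to 40.5 M reads (M, 1e+06; median 30.5 M), recovered from the deposited normalized counts. Npc1 lay between 291 and 787 normalized counts in the NPC libraries and between 2606 and 7386 in the WT libraries. All 12 microglial markers, Tmem119 among them, were detected in every group, and their summed level was 945998 to 2564610 normalized counts per library, against 44.9 to 1158 for 12 neuronal markers. In 6 libraries, all from NPC mice at 9 weeks (untreated replicate C, PLX5622 replicates 1, 2 and 3, and control replicates 1 and 2), the summed level of 25 immediate early and dissociation genes was 178705 to 361311, while in the other 35 libraries it did not exceed 58683. In PLX5622 replicate 3 the 15 monocyte and neutrophil markers in the table summed to 116054, against 30906 or less in every other library. The labels do not say that replicates came from separate mice, so p-values measure the spread between these samples, which may be technical. The sequencing kit does not mark the strand of a read, and in RefSeq the Ccl3 and Ccl4 genes overlap by 755 bases, Cxcl16 and Zmynd15 by 552, and Cxcl10 and Art3 share 2252 bases and Ccl6 and E230016K23Rik 5202, so reads of these pairs may have been counted to either gene. Ccl5 shares 4741 bases with Gm32650, a long noncoding RNA gene absent from the deposited table. Reads of Gm32650 may therefore have been counted to Ccl5, which was not tested.

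At 1 week, none of the 10 chemokines passed the test between NPC and WT microglia (limma, Benjamini-Hochberg adjusted p under 0.05 over 14046 genes). An unadjusted p under 0.05 was found for 1 of them, beside 1642 of the 14046 genes. On the recovered reads edgeR and DESeq2 also called 0. Over all genes, 0.876% were called higher and 0.577% lower in NPC at this age. At 3 weeks 7 of 10 were higher in NPC than in WT and none was lower, while 14.3% of all genes were higher and 12.6% lower. At 6 weeks 7 of 10 were higher in NPC, beside 8.76% of all genes higher and 6.50% lower. At 9 weeks 7 of 10 were higher, beside 11.2% of all genes higher and 7.77% lower. The same 7 genes passed at the 3 later ages: Ccl2, Ccl3, Ccl4, Ccl5, Ccl12, Cxcl10 and Cxcl16. Because the 10 genes were chosen with earlier results of these data known, these counts do not measure how chemokines as a class responded. The median log2 difference of the 10 genes was -0.28 at 1 week, 1.65 at 3 weeks, 2.23 at 6 weeks and 1.67 at 9 weeks, beside 0.00, -0.04, -0.02 and 0.03 over all genes tested. Fewer cells making a transcript and less RNA of it per cell cannot be told apart in these bulk libraries.

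**Figure D1:**
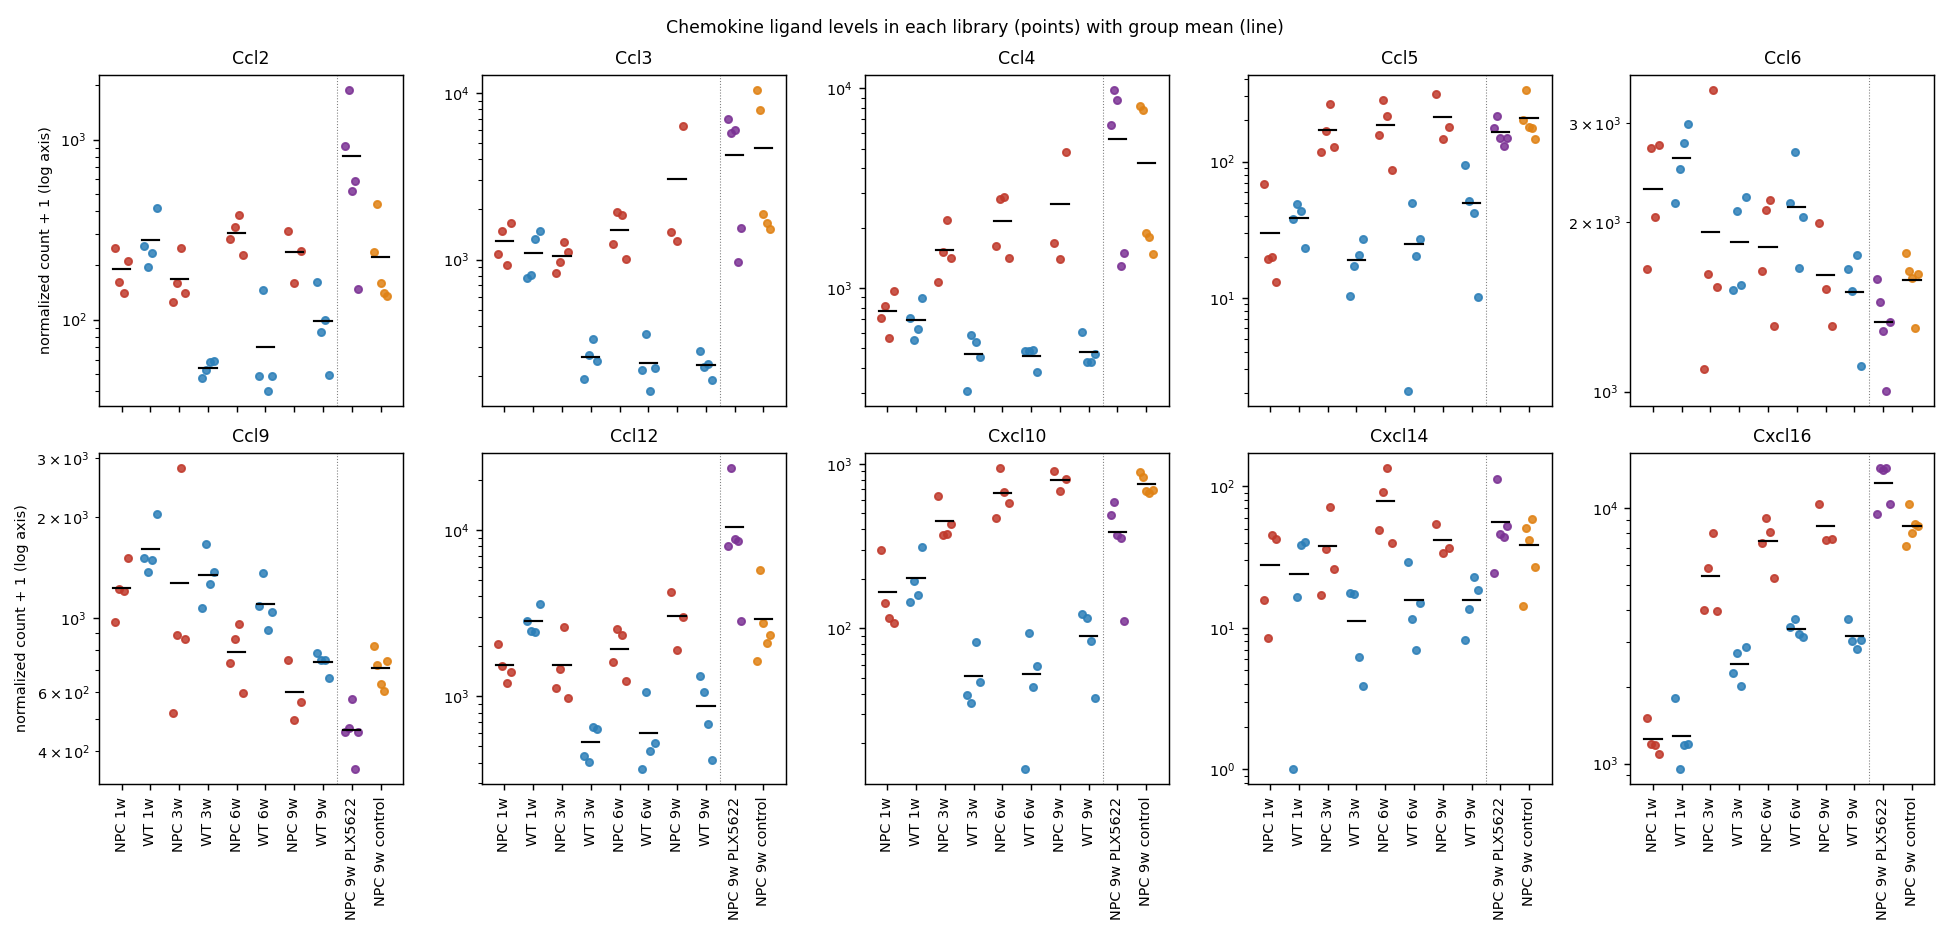
Normalized count plus 1 (log axis) of the 10 chemokines in each of the 41 libraries (points), with group means as lines; at each age NPC (red) stands left of WT (blue), and NPC 9w PLX5622 (purple) stands left of NPC 9w control (orange). From 3 weeks on the NPC points of Ccl3, Ccl4, Ccl5, Ccl12, Cxcl10 and Cxcl16 lie above all WT points of the same age, whereas those of Ccl6 and Ccl9 overlap the WT points.

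**Figure D2:**
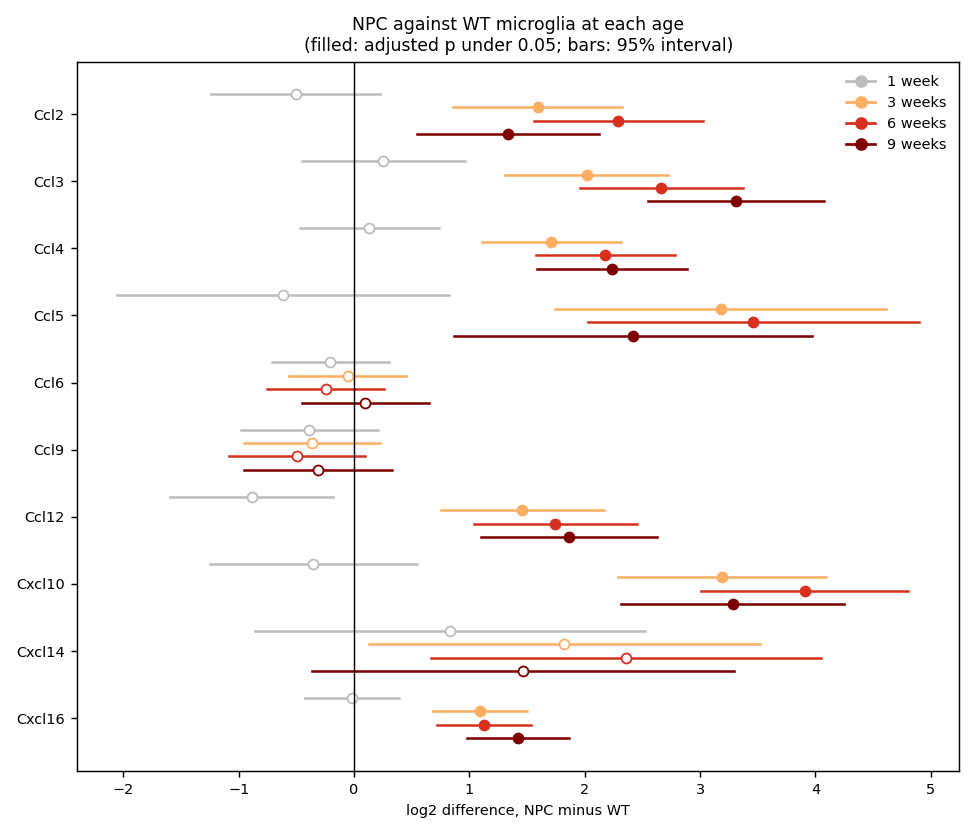
Log2 difference between NPC and WT microglia (x axis) for each chemokine (y axis) at 1, 3, 6 and 9 weeks, with 95% confidence intervals; filled points passed the test. For 7 genes the 3 later ages lie to the right of 0 and the 1-week point is open, with Cxcl10 at 3.19, 3.91 and 3.28 at 3, 6 and 9 weeks.

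Cxcl10 had the highest fold of the 10 genes at 3 and 6 weeks, and at 9 weeks Ccl3 had a slightly higher one. At 3 weeks Cxcl10 had 632, 366, 372 and 429.5 normalized counts in NPC libraries, against 38.3, 34.1, 82.2 and 46.0 in WT libraries. The 6-week libraries held 467, 943, 673 and 579 normalized counts in NPC libraries, against 13, 92.7, 43.0 and 58.2 in WT libraries. The 9-week libraries held 898, 679 and 812 normalized counts in NPC libraries, against 121, 114, 82.3 and 36.8 in WT libraries. At each of these ages every NPC library lay above every WT library, the highest WT library (121 at 9 weeks) being below the lowest NPC library (366 at 3 weeks). The fold of NPC over WT, with its 95% confidence interval (CI), was 9.12 (95% CI 4.90 to 17.0; adjusted p = 5.56e-06) at 3 weeks, 15.0 (95% CI 8.05 to 27.9; adjusted p = 2.01e-07) at 6 weeks and 9.72 (95% CI 4.96 to 19.0; adjusted p = 7.18e-06) at 9 weeks. At 1 week the libraries of the genotypes overlapped, with 297, 143, 114 and 107 normalized counts in NPC libraries, against 145, 193, 158 and 312 in WT libraries, and the fold was 0.784 (95% CI 0.421 to 1.46; adjusted p = 0.875).

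Ccl5, a T cell and macrophage attractant, was a low-level transcript in WT microglia and was higher in NPC than in WT from 3 weeks on. At 3 weeks Ccl5 had 117, 165, 264 and 127 normalized counts in NPC libraries, against 9.30, 16.2, 19.8 and 25.9 in WT libraries. At 6 weeks the level was 156, 284, 213 and 85.9 normalized counts in NPC libraries, against 1.08, 49.0, 19.3 and 25.9 in WT libraries. At 9 weeks the level was 312, 146 and 179 normalized counts in NPC libraries, against 93.0, 50.3, 40.7 and 9.20 in WT libraries. The NPC libraries lay above the WT libraries at each of the 3 ages. The fold was 9.04 (95% CI 3.34 to 24.5; adjusted p = 0.00174) at 3 weeks, 11 (95% CI 4.07 to 29.9; adjusted p = 0.000781) at 6 weeks and 5.35 (95% CI 1.82 to 15.7; adjusted p = 0.0238) at 9 weeks. In WT 6w replicate A Ccl5 had 1 read, and without this library the fold at 6 weeks was 5.66 (adjusted p = 0.0053). The call at 9 weeks was lost without WT replicate D (log2 difference 1.79, adjusted p = 0.113), without NPC replicate A (2.10, adjusted p = 0.124), without NPC replicate C (2.5, adjusted p = 0.0537), and with the replicate letter as a block (log2 difference 1.79, adjusted p = 0.0827). The summed level of 20 type I interferon response genes, a list that does not hold Cxcl10 or Ccl5, had medians of 30431, 35093 and 36769 in NPC at 3, 6 and 9 weeks, against 9932, 11574 and 11337 in WT. At 1 week it was also higher in every NPC library (14617 to 25046, against 12600 to 13633 in WT), whereas the folds of Cxcl10 and Ccl5 were 0.784 and 0.653 and did not pass. The part of this list in the levels of both genes was not tested.

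Ccl3 and Ccl4, the macrophage inflammatory proteins, were higher in NPC microglia at 3, 6 and 9 weeks. At 3 weeks Ccl3 had 830.0, 966, 1277 and 1106 normalized counts in NPC libraries, against 191, 266, 335 and 246 in WT libraries. Libraries of 6 weeks held 1248, 1935, 1863 and 1014 normalized counts in NPC libraries, against 216, 355, 162 and 223 in WT libraries. Libraries of 9 weeks held 1468, 1298 and 6335 normalized counts in NPC libraries, against 280.1, 225, 234 and 188 in WT libraries. The genotypes did not overlap at these ages, and at 9 weeks NPC replicate C stood far above the other NPC libraries. The Ccl3 fold was 4.04 (95% CI 2.48 to 6.60; adjusted p = 0.000115), 6.34 (95% CI 3.88 to 10.3; adjusted p = 1.88e-06) and 9.95 (95% CI 5.86 to 16.9; adjusted p = 1.3e-07) at the 3 ages. At 3 weeks Ccl4 had 1072, 1510.3, 2184 and 1412 normalized counts in NPC libraries, against 306, 582, 539 and 454 in WT libraries. At 6 weeks it had 1620.4, 2795, 2849 and 1418 normalized counts in NPC libraries, against 484, 486, 489 and 378 in WT libraries. At 9 weeks it had 1680.0, 1394 and 4816 normalized counts in NPC libraries, against 601, 425, 427 and 469 in WT libraries. Again all NPC libraries exceeded all WT libraries, and NPC replicate C was the highest at 9 weeks. The Ccl4 fold was 3.27 (95% CI 2.15 to 4.96; adjusted p = 0.000125), 4.52 (95% CI 2.98 to 6.87; adjusted p = 3.41e-06) and 4.71 (95% CI 3.00 to 7.39; adjusted p = 5.95e-06). NPC replicate C is the untreated library with the high immediate early gene level; without it the log2 difference at 9 weeks was 2.58 for Ccl3 (adjusted p = 8.82e-07), against 3.31 with it, and 1.68 for Ccl4 (adjusted p = 0.000148), against 2.23 with it.

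Ccl12 and Ccl2, the Ccr2 ligands, were higher in NPC than in WT at the same ages. Between 1 and 3 weeks neither passed as changed in NPC microglia, while both fell in WT. At 3 weeks Ccl12 had 1123, 1458, 2618 and 973 normalized counts in NPC libraries, against 438, 405, 650.0 and 634 in WT libraries. The 6-week libraries held 1611, 2545, 2345 and 1242 normalized counts in NPC libraries, against 365, 1063, 466 and 524 in WT libraries. The 9-week libraries held 4259, 1899 and 2989 normalized counts in NPC libraries, against 1323, 1065, 679 and 413 in WT libraries. The genotypes did not overlap at these ages, and WT 6w replicate B (1063) came closest to an NPC library of its age (1242 in replicate D). The Ccl12 fold was 2.75 (95% CI 1.68 to 4.48; adjusted p = 0.00318), 3.35 (95% CI 2.05 to 5.46; adjusted p = 0.000605) and 3.64 (95% CI 2.15 to 6.18; adjusted p = 0.000526). In NPC 6w replicates B and C the 12 oligodendrocyte and myelin markers summed to 19839 and 17168, against 9189 and 6835 in replicates A and D. With B and C left out together, the log2 difference of Ccl12 at 6 weeks was 1.35 (adjusted p = 0.0525), against 1.74 with them. Replicates B and C were the highest NPC 6w libraries for every chemokine described here, not for Ccl12 alone. The part of these markers in the chemokine levels was not tested.

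For Ccl2 the 3-week libraries held 124, 159, 248 and 139 normalized counts in NPC libraries, against 46.5, 51.2, 57.2 and 57.6 in WT libraries. At 6 weeks the level was 279, 325, 378 and 227 normalized counts in NPC libraries, against 47.6, 144, 39.3 and 47.4 in WT libraries. At 9 weeks the level was 310.2, 159 and 238 normalized counts in NPC libraries, against 161, 83.8, 98.2 and 48.5 in WT libraries. The genotypes were apart at 3 and 6 weeks, but at 9 weeks NPC replicate B (159) lay just below WT replicate A (161). The Ccl2 fold was 3.02 (95% CI 1.82 to 5.01; adjusted p = 0.00199), 4.89 (95% CI 2.94 to 8.12; adjusted p = 2.72e-05) and 2.52 (95% CI 1.46 to 4.36; adjusted p = 0.0142). The 9-week call was lost without WT replicate D (log2 difference 1.04, adjusted p = 0.0693), without NPC replicate A (1.11, adjusted p = 0.103) and in a fit of all 41 libraries (adjusted p = 0.0668).

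Cxcl16, the membrane-bound ligand of Cxcr6, was also higher in NPC than in WT at the 3 later ages. At 3 weeks Cxcl16 had 3983, 5826, 8022 and 3961 normalized counts in NPC libraries, against 2269, 2715, 2011 and 2866 in WT libraries. Libraries of 6 weeks held 7341, 9138, 8067 and 5314 normalized counts in NPC libraries, against 3415, 3676, 3210.5 and 3122 in WT libraries. Libraries of 9 weeks held 10361, 7542 and 7583 normalized counts in NPC libraries, against 3691, 3029, 2819 and 3055 in WT libraries. Every NPC library exceeded every WT library at each of these ages. The fold was 2.13 (95% CI 1.61 to 2.83; adjusted p = 0.000248), 2.19 (95% CI 1.65 to 2.90; adjusted p = 0.000153) and 2.68 (95% CI 1.97 to 3.64; adjusted p = 1.48e-05).

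Ccl6, Ccl9 and Cxcl14 did not pass the test between genotypes at any age. For Ccl6 the fold was 0.867, 0.963, 0.843 and 1.07 at 1, 3, 6 and 9 weeks, with an interval of 0.730 to 1.56 and an adjusted p of 0.85 at 9 weeks. For Ccl9 it was 0.764, 0.777, 0.71 and 0.805, with adjusted p of 0.693, 0.357, 0.27 and 0.544. NPC 3w replicate C stood apart for both. Ccl9 at 3 weeks had 519.8, 886, 2811 and 864 normalized counts in NPC libraries, against 1067, 1658, 1266 and 1369.8 in WT libraries. Ccl6 had 1097, 1615, 3441 and 1534 in NPC libraries, against 1513, 2096, 1545 and 2217 in WT libraries. Replicate C was also the highest NPC 3w library for every other chemokine described here except Cxcl10. Of the 41 libraries it held the fewest genes with 3 or more reads (12003). The chemokines called higher at 3 weeks kept their calls without it. Without this library Ccl9 was called lower in NPC at 3 weeks (log2 difference -0.85, adjusted p = 0.00313) and at 6 weeks (-0.49, adjusted p = 0.0471), and both Ccl9 (-0.72, adjusted p = 0.00638) and Ccl6 (-0.68, adjusted p = 0.0151) were called lower at 3 weeks than at 1 week in NPC.

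Cxcl14 had the lowest level per kb of exon among the 10 genes in all 10 groups. At 6 weeks Cxcl14 had 47.9, 90.8, 134 and 39.1 normalized counts in NPC libraries, against 28.1, 10.6, 5.92 and 14.0 in WT libraries. The groups did not overlap at 6 weeks, and the fold was 5.13 (95% CI 1.59 to 16.6; adjusted p = 0.0518), just outside the threshold. DESeq2 (log2 difference 2.43, adjusted p = 0.00635) and edgeR (2.39, adjusted p = 0.0371) did call it at 6 weeks, and DESeq2 (1.83, adjusted p = 0.041) but not edgeR (1.82, adjusted p = 0.0854) called it at 3 weeks. The 3-week libraries held 15.9, 35.2, 70.2 and 25.1 in NPC, against 16.5, 16.2, 5.20 and 2.88 in WT, with overlap and a fold of 3.54 (95% CI 1.09 to 11.4; adjusted p = 0.0968). At 9 weeks Cxcl14 had 53.4, 32.9 and 35.4 normalized counts in NPC libraries, against 7.16, 12.6, 21.8 and 17.6 in WT libraries, which did not overlap, and a fold of 2.76 (95% CI 0.778 to 9.82; adjusted p = 0.279). The 2 highest libraries at 6 weeks, NPC replicates B and C, were the highest NPC 6w libraries for every other chemokine described here too. They were also highest in the summed level of 12 astrocyte and Bergmann glia markers (16054 and 15519). Replicates A and D held 11797 and 10167, and WT 6w libraries 9772 to 10996. With B and C left out together the Cxcl14 fold was 3.23 (log2 1.69, adjusted p = 0.43). The part of these markers in the Cxcl14 level was not tested. In WT 1w replicate A Cxcl14 had 0 reads, for which the limit of 3 reads corresponds to 3.71 normalized counts, a limit that covers counting error only.

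From 1 to 3 weeks of age, 4 of these chemokines fell and 1 rose in WT microglia, while 0 fell and 4 rose in NPC microglia. In NPC mice Ccl4, Ccl5, Cxcl10 and Cxcl16 rose, beside 12.2% of all genes higher and 12.8% lower at 3 weeks than at 1 week. In WT mice Ccl2, Ccl3, Ccl12 and Cxcl10 fell and Cxcl16 rose, beside 18.4% lower and 15.7% higher.

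Ccl12 in NPC libraries had 1123, 1458, 2618 and 973 normalized counts at 3 weeks, against 2057, 1519.6, 1204 and 1407 at 1 week. In WT libraries it had 438, 405, 650.0 and 634 at 3 weeks, against 2831, 2481, 2449 and 3618 at 1 week. The NPC ages overlapped, whereas the WT ages did not. The log2 change of Ccl12 was -0.09 ± 0.34 (SE; adjusted p = 0.887) in NPC and -2.43 ± 0.34 (SE; adjusted p = 2.89e-06) in WT. At 1 week itself all 4 NPC libraries lay below all 4 WT libraries (0.540-fold), although the adjusted p over all genes was 0.262; in a fit of these 8 libraries alone it was 0.0142.

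Cxcl10 in NPC libraries had 632, 366, 372 and 429.5 at 3 weeks, against 297, 143, 114 and 107 at 1 week, and in WT libraries 38.3, 34.1, 82.2 and 46.0 at 3 weeks, against 145, 193, 158 and 312 at 1 week. Neither genotype's ages overlapped, and the directions were opposite. The log2 change was 1.53 ± 0.44 (SE; adjusted p = 0.0101) in NPC and -2.01 ± 0.44 (SE; adjusted p = 0.000693) in WT. For Ccl2 it was -0.20 ± 0.36 (SE; adjusted p = 0.731) in NPC and -2.30 ± 0.36 (SE; adjusted p = 1.08e-05) in WT. For Ccl3 it was -0.28 ± 0.34 (SE; adjusted p = 0.588) in NPC and -2.05 ± 0.34 (SE; adjusted p = 3.35e-05) in WT, where the libraries held 191, 266, 335 and 246 at 3 weeks and 779.7, 803, 1332 and 1483 at 1 week.

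Ccl5 rose in NPC by 2.73 ± 0.70 (SE; adjusted p = 0.00455) on the log2 scale and changed by -1.06 ± 0.70 (SE; adjusted p = 0.259) in WT, which did not pass. Ccl4 rose in NPC by 0.99 ± 0.29 (SE; adjusted p = 0.0131), a call lost without NPC 1w replicate C (0.86, adjusted p = 0.0542) and in a fit of all 41 libraries (adjusted p = 0.154), and its change in WT was -0.58 ± 0.29 (SE; adjusted p = 0.132). Cxcl16 rose in both genotypes, by 2.08 ± 0.20 (SE; adjusted p = 4.89e-09) in NPC and 0.97 ± 0.20 (SE; adjusted p = 0.000384) in WT. Its libraries at 1 week held 1509, 1196, 1178 and 1093 normalized counts in NPC libraries, against 1804, 952, 1181 and 1197 in WT libraries, with overlap between the genotypes. Ccl6, Ccl9 and Cxcl14 did not pass in either genotype.

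**Figure D3:**
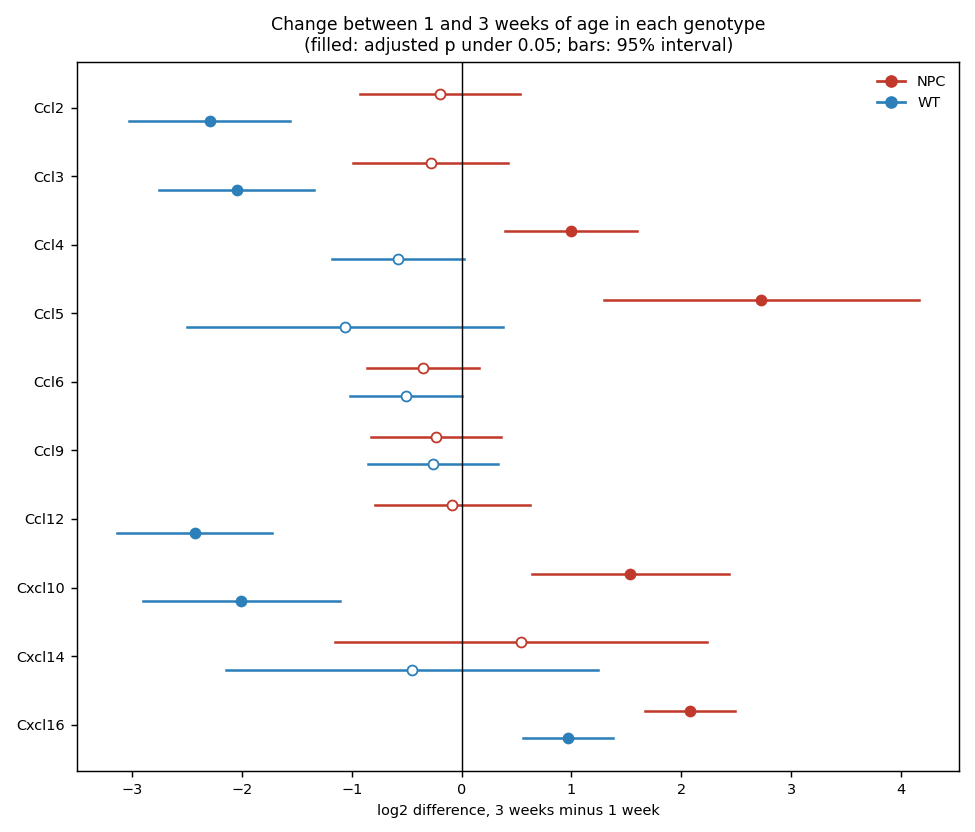
Log2 difference between 3 weeks and 1 week of age (x axis) for each chemokine (y axis) in NPC (red, above) and WT (blue, below), with 95% confidence intervals; filled points passed the test. Cxcl10 lies at 1.53 in NPC and -2.01 in WT, and Ccl12 at -0.09 in NPC and -2.43 in WT, while Cxcl16 lies right of 0 in both.

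The genotype difference at 3 weeks was tested against that at 1 week as an interaction, and 4 of 10 chemokines passed, all with a larger difference at 3 weeks, beside 0.861% of all genes in that direction and 0.199% in the other. On the log2 scale the change in the difference was 3.54 ± 0.62 (SE; adjusted p = 0.00438) for Cxcl10 and 2.35 ± 0.49 (SE; adjusted p = 0.015) for Ccl12. It was 2.10 ± 0.51 (SE; adjusted p = 0.0335) for Ccl2 and 1.11 ± 0.28 (SE; adjusted p = 0.0482) for Cxcl16. Ccl5, Ccl4 and Ccl3 did not pass, at 3.79 ± 0.99 (SE; adjusted p = 0.0562), 1.57 ± 0.42 (SE; adjusted p = 0.0591) and 1.76 ± 0.49 (SE; adjusted p = 0.072). The median of the 10 genes was 1.67, beside -0.03 over all genes tested. With the replicate letter as a block Cxcl16 was lost (adjusted p = 0.0514), and Ccl4 (0.0463) and Ccl5 (0.0337) were gained. The count was 2 when any 1 of 8 libraries was left out (WT 1w C or D, WT 3w A or B, NPC 1w B or C, NPC 3w B or C). Ccl2 (log2 1.88 to 2.16) and Cxcl16 (0.90 to 1.16) then missed the threshold, while 62 to 122 of all genes passed, against 149. The count was 7 without NPC 3w replicate A or with DESeq2, beside 420 and 479 of all genes. Cxcl16 also missed the threshold without replicate D of NPC 1w, A of WT 1w or C of WT 3w. It missed it too with only the groups compared (adjusted p = 0.173), no filter (0.0658) and TMM scaling factors (0.0505). Ccl2 missed it in a fit of all 41 libraries (0.124), where Ccl5 passed (0.0244), and with quantile normalization (0.0524). In total Ccl2 was lost in 10 and Cxcl16 in 15 of 30 alternatives, while Ccl5 was gained in 9 and Ccl3 and Ccl4 in 4 each.

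Between 9 and 3 weeks 0 of 10 chemokines passed in NPC microglia, with 4 at an unadjusted p under 0.05, beside 2980 of 14046 genes. Over all genes 2.31% were higher and 2.11% lower, 620 of 14046 in total. Of the chemokines edgeR called 2 and DESeq2 called 3, beside 662 and 1042 of all genes. With libraries scaled to the same total limma called 2 chemokines, beside 655 of all genes. It called 1 with quantile normalization and 3 with library weights, beside 677 and 1212 of all genes. In NPC the log2 change was 1.15 ± 0.37 (SE; adjusted p = 0.0715) for Ccl3, 1.02 ± 0.37 (SE; adjusted p = 0.118) for Ccl12, 0.69 ± 0.22 (SE; adjusted p = 0.0629) for Cxcl16 and -0.80 ± 0.31 (SE; adjusted p = 0.142) for Ccl9. Without NPC 9w replicate C the Ccl3 change was 0.42 (adjusted p = 0.494), without NPC 9w replicate B it passed (1.56, adjusted p = 0.0251), and without NPC 3w replicate C both Cxcl16 (0.90, adjusted p = 0.00775) and Ccl12 (1.31, adjusted p = 0.0488) passed. Without NPC 3w replicate A, Ccl9 passed as lower at 9 weeks (-1.13, adjusted p = 0.017).

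In WT microglia 0 of 10 passed between 9 and 3 weeks, beside 0.228% of all genes higher and 0.249% lower. An unadjusted p under 0.05 was found for 2 chemokines, beside 1026 of 14046 genes, and edgeR and DESeq2 called 0 chemokines. Ccl9 had 786, 746, 745 and 662 at 9 weeks, against 1067, 1658, 1266 and 1369.8 at 3 weeks, which did not overlap, and its log2 change was -0.85 ± 0.29 (SE; adjusted p = 0.303). It passed without NPC 3w replicate C, which enters the shared estimate of spread (adjusted p = 0.0104), with library weights (0.00118) and in a fit of the WT groups compared (0.0058). The genotype difference at 9 weeks minus that at 3 weeks passed for 0 of 10, beside 0.263% of all genes with a larger and 0.192% with a smaller difference at 9 weeks. Here 1 chemokine had an unadjusted p under 0.05, beside 1586 of 14046 genes, and edgeR and DESeq2 called 0 chemokines. For Ccl3 this change in the genotype difference was 1.30 ± 0.51 (SE; adjusted p = 0.309), or 0.57 without NPC 9w replicate C (adjusted p = 0.634), and for Cxcl10 0.09 ± 0.65 (SE; adjusted p = 0.956).

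Under PLX5622 none of the 10 chemokines passed the test against control in NPC mice at 9 weeks by limma or edgeR. Of the 10, 5 had an unadjusted p under 0.05 by limma, beside 1931 of 12877 genes. Over 12877 genes limma called 0.637% higher and 0.311% lower, 122 in total. DESeq2 called 3 of the chemokines, beside 605 of all genes: Ccl9 (adjusted p = 0.00684), Cxcl16 (0.0121) and Ccl12 (0.0268). The highest Ccl12 and Ccl2 values of the 41 libraries were both in PLX5622 replicate 2, and every PLX5622 library had less Cxcl10 than every control library. Csf1r, the target of the drug, averaged 456725 ± 54499.7 normalized counts in PLX5622 libraries and 481216 ± 25354 in control libraries (SD, n = 5 each). Ccl12 had 8071, 23765, 8827, 8637 and 2837 normalized counts in PLX5622 libraries, against 1643, 5795, 2757, 2099 and 2354 in control libraries. PLX5622 replicates 1 to 4 exceeded all control libraries, and replicate 5 lay among them. The fold was 3.17 (95% CI 1.49 to 6.73; adjusted p = 0.15).

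Ccl2 had 917, 1893, 517, 589 and 147 in PLX5622 libraries, against 235, 437, 159, 140.2 and 135 in control libraries. Here too replicates 1 to 4 lay above all control libraries and replicate 5 did not. The fold was 3.01 (95% CI 1.30 to 6.99; adjusted p = 0.212). Cxcl10 had 489, 589, 367, 355 and 111 in PLX5622 libraries, against 884, 828, 684, 667 and 688 in control libraries. No library overlapped, PLX5622 replicate 5 was the lowest, and the fold was 0.449 (95% CI 0.263 to 0.766; adjusted p = 0.151).

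Cxcl16 had 9484, 14388, 14089.8, 14332 and 10382 in PLX5622 libraries, against 7125, 10405, 7966, 8699 and 8534 in control libraries. PLX5622 replicates 2, 3 and 4 lay above all control libraries, and the fold was 1.46 (95% CI 1.17 to 1.81; adjusted p = 0.0998). Ccl9 had 456, 466, 569, 352 and 455 in PLX5622 libraries, against 826, 721, 635, 604 and 739.8 in control libraries. All PLX5622 libraries lay below all control libraries, with a fold of 0.649 (95% CI 0.517 to 0.816; adjusted p = 0.0765). Without PLX5622 replicate 5, 465 of 12778 genes (3.64%) passed, against 122 (0.947%) with it, and 4 chemokines passed: Ccl2 (log2 2.10, adjusted p = 0.0211), Ccl12 (2.05, adjusted p = 0.0211), Cxcl16 (0.60, adjusted p = 0.0472) and Cxcl10 (-0.76, adjusted p = 0.0409). The same 4 passed with the replicate number as a block, with adjusted p between 0.0114 and 0.0497, as did 3.23% of all genes.

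The remaining chemokines of the arm were Ccl5 at 0.812-fold, Ccl6 at 0.835-fold and Cxcl14 at 1.43-fold, with adjusted p of 0.629, 0.393 and 0.688. Beside these values, the 12 border-associated macrophage markers summed to 27233 to 50941 normalized counts in PLX5622 libraries and 19751 to 30060 in control libraries. Of these markers Lyve1 alone was at 0 in every PLX5622 library. It was also at 0 in every untreated NPC library of 6 weeks, but not in every control library. The 12 microglial markers summed to 945998 to 1262910 in PLX5622 libraries, where replicate 5 was the highest, and 1083420 to 1313360 in control libraries. The 20 interferon response genes summed to 32504 to 44050 in PLX5622 libraries (median 42482) and 24529 to 39272 in control libraries (median 36254). The part of these lists in the chemokine levels was not tested.

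**Figure D4:**
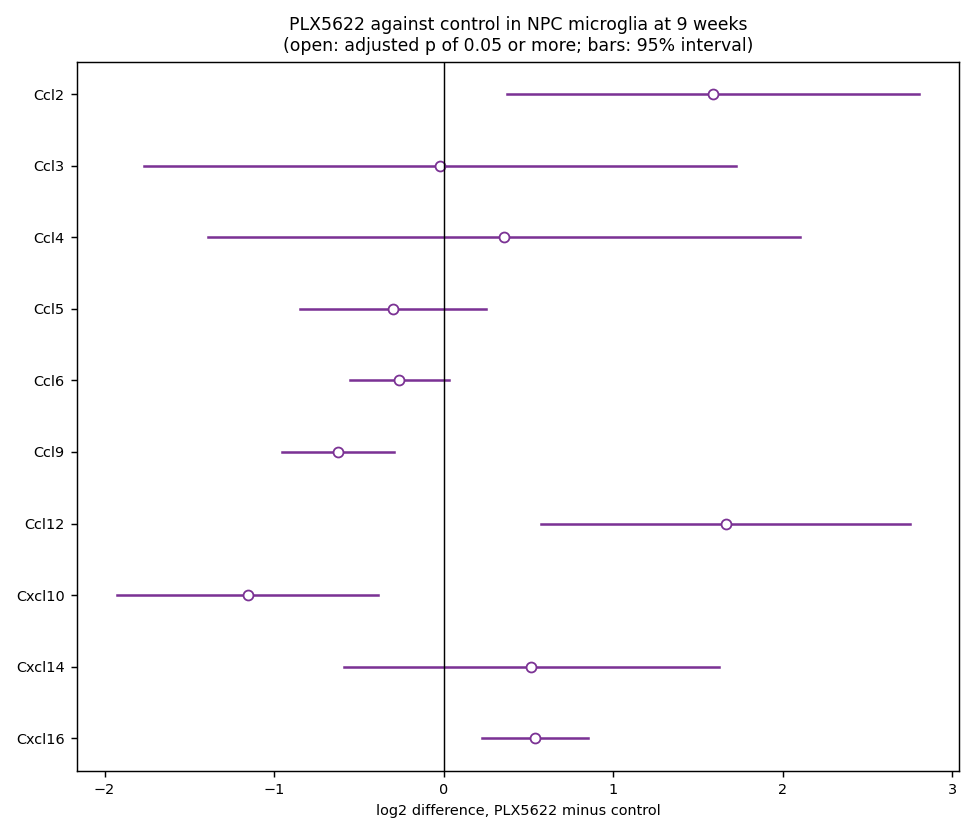
Log2 difference between PLX5622 and control NPC libraries at 9 weeks (x axis) for each chemokine (y axis), with 95% confidence intervals from 5 libraries per group; all points are open because no adjusted p was under 0.05. Ccl12 (1.66) and Ccl2 (1.59) lie right of 0, Cxcl10 (-1.15) and Ccl9 (-0.62) left of it, and the intervals of Ccl3 and Ccl4 are the widest.

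Ccl3 and Ccl4 were high in some libraries of both groups of this arm. Ccl3 had 6987, 5765, 5976, 969 and 1558 in PLX5622 libraries, against 10495, 7905, 1875, 1667 and 1519.7 in control libraries. Ccl4 had 6584, 9871, 8782, 1293 and 1508 in PLX5622 libraries, against 8197, 7794, 1883, 1803 and 1491 in control libraries. PLX5622 replicates 1 to 3 and control replicates 1 and 2 were high for both genes, and the other libraries of each group were low, so the groups overlapped. The fold was 0.984 (95% CI 0.293 to 3.30; adjusted p = 0.993) for Ccl3 and 1.28 (95% CI 0.382 to 4.29; adjusted p = 0.872) for Ccl4. These 5 libraries and untreated NPC 9w replicate C are the 6 with an immediate early gene level of 178705 or more. In those 6 libraries Ccl3 was 5765 to 10495 and Ccl4 was 4816 to 9871, whereas in the other 35 libraries Ccl3 did not exceed 1935 and Ccl4 did not exceed 2849. Ccl12 did not divide along the same line, since PLX5622 replicate 4 held 8637 with a low immediate early gene level and control replicate 1 held 1643 with a high one. Whether the immediate early gene level bears on Ccl3 and Ccl4 was not tested. Without those 6 libraries, a choice made after seeing the data, 6 chemokines passed for NPC against WT at 9 weeks (Ccl5 missing, adjusted p = 0.0537). Over all genes 2039 of 14013 passed there. For PLX5622 against control 0 chemokines passed, beside 18 of 12027 genes, with PLX5622 replicates 4 and 5 set against control replicates 3 to 5. The log2 difference was then 1.05 for Ccl12 and 1.02 for Ccl2, against 1.66 and 1.59 with all libraries. For Cxcl10 it was -1.77, against -1.15.

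**Figure D5:**
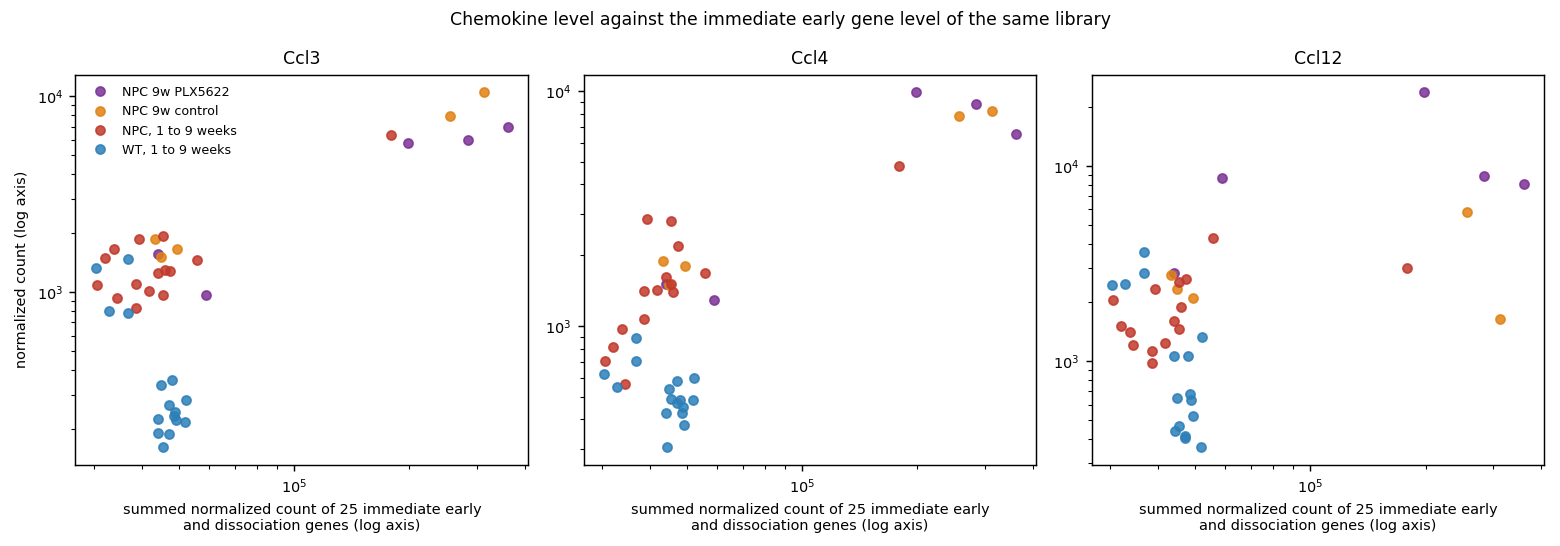
Normalized count of Ccl3, Ccl4 and Ccl12 (y axes, log) against the summed normalized count of 25 immediate early and dissociation genes (x axes, log) in each of the 41 libraries, coloured by group. The 6 libraries at 178705 or more on the x axis hold the highest Ccl3 and Ccl4 values, while Ccl12 is spread on both sides.

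The control group of the PLX5622 arm was set against the untreated NPC mice of the same age. None of the 10 chemokines passed by limma, edgeR or DESeq2, none had an unadjusted p under 0.05, and over all genes limma called 0% higher and 0% lower (598 of 14312 genes had an unadjusted p under 0.05). For Cxcl10 the means were 750.2 ± 99.1 in control libraries (SD, n = 5) and 796 ± 110.4 in untreated libraries (SD, n = 3), with a log2 difference of -0.09 (95% CI -1.01 to 0.84; adjusted p = 1). For Cxcl16 they were 8546 ± 1208 and 8495 ± 1616, with a log2 difference of 0.01 (95% CI -0.39 to 0.42; adjusted p = 1).

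Divided by exon length, the abundance of the 10 transcripts can be set side by side. In NPC microglia at 9 weeks Ccl12 had 5678 ± 2199.9 normalized counts per kb (SD, n = 3), Ccl4 3985 ± 2876, Ccl3 3959.8 ± 3734 and Cxcl16 3148 ± 599. The other 6 followed, with Ccl6 at 1117 ± 246 per kb, Cxcl10 at 524 ± 72.7, Ccl5 at 399 ± 166, Ccl2 at 290.1 ± 92.8, Ccl9 at 199 ± 43.3 and Cxcl14 at 22.2 ± 6.10. In WT microglia at 9 weeks Ccl12 (1620.0 ± 751 per kb; SD, n = 4), Cxcl16 (1166 ± 139.6), Ccl6 (1044 ± 195) and Ccl4 (728 ± 126) had the most, and Ccl3 had 303 ± 49.3. The spreads of Ccl12, Ccl3, Ccl4 and Cxcl16 overlap in NPC at 9 weeks. Without NPC 9w replicate C, the untreated library high in immediate early genes, the means per kb were 5734 for Ccl12, 3317 for Cxcl16, 2329 for Ccl4 and 1805 for Ccl3, so Cxcl16 then stood above Ccl4 and Ccl3.

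Ordered by mean over the 10 groups, Cxcl10 and Ccl5 were highest in NPC mice at 9 weeks, Ccl3 in the control group of the arm, Ccl2, Ccl4, Ccl12 and Cxcl16 under PLX5622, Cxcl14 in NPC mice at 6 weeks, and Ccl6 and Ccl9 in WT mice at 1 week. The lowest means were in WT mice at 3 weeks for Ccl2, Ccl5, Ccl12, Cxcl10 and Cxcl14, in WT mice at 9 weeks for Ccl3, at 6 weeks for Ccl4, in NPC mice at 1 week for Cxcl16 and under PLX5622 for Ccl6 and Ccl9. Of the 9 neighbouring pairs in each order, the library ranges were apart for 2 in Cxcl16 and 1 each in Ccl3, Ccl4 and Ccl5, and they overlapped for all pairs of the other 6 genes. Such pairs were not counted over all genes, so these counts cannot show whether the chemokines differ from other genes. By median, Ccl3 was instead highest under PLX5622 (5765, against 1875 in the control group), and Ccl5 in NPC mice at 6 weeks. In the control group 2 libraries high in immediate early genes (replicates 1 and 2) carry the Ccl3 mean. The PLX5622 median is the value of replicate 2, which with replicates 1 and 3 was also high in immediate early genes. Without such libraries the log2 difference of Ccl3 between PLX5622 and control was -0.45 (limma adjusted p = 0.361). For Ccl3 the break lay between NPC (1045) and WT (259) mice at 3 weeks, with both WT and NPC mice at 1 week above it.

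The other genes of the chemokine system moved in both directions. Of 27 other chemokine ligands, 14 passed the filter. Of these 0 were higher and 1 lower in NPC than in WT at 1 week (all genes, 0.876% and 0.577%). At 3 weeks 2 were higher and 1 lower (14.3% and 12.6%), and at 6 weeks 4 were higher and 1 lower (8.76% and 6.50%). At 9 weeks 2 were higher and 3 lower (11.2% and 7.77%). Cxcl11, a further Cxcr3 ligand, averaged 138 ± 62.5 normalized counts in NPC and 9.10 ± 9.51 in WT at 3 weeks (SD, n = 4 each; adjusted p = 2.2e-05), and it passed at 6 and 9 weeks as well. Ccl24, an eosinophil attractant that binds Ccr3, was lower in NPC at all 4 ages, with 89.8 ± 31.5 in NPC (SD, n = 3) and 356 ± 45.3 in WT (SD, n = 4) at 9 weeks (adjusted p = 1.8e-06). Ccl7, a monocyte attractant that binds Ccr2, averaged 42.8 ± 12.9 in NPC and 8.40 ± 3.48 in WT at 3 weeks (adjusted p = 0.00425). Under PLX5622, 1 of 11 ligands passed: Cxcl11 fell to 20.5 ± 17.3, against 151 ± 88.6 in control libraries (SD, n = 5 each; adjusted p = 0.0494).

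Of 23 chemokine receptors, 17 passed the filter. Beside the same shares of all genes, 0 were higher and 3 lower in NPC than in WT at 1 week, and 4 higher and 6 lower at 3 weeks. At 6 weeks 3 were higher and 7 lower, and at 9 weeks 3 were higher and 6 lower. Ccr1, which binds Ccl3, Ccl5, Ccl6 and Ccl9, averaged 181 ± 66.9 in NPC (SD, n = 3) and 1702 ± 576 in WT (SD, n = 4) at 9 weeks, a fold of 0.107 (95% CI 0.0707 to 0.162; adjusted p = 3.05e-09). Cxcr3, the receptor of Cxcl10, was higher in NPC at 3 weeks, with 164 ± 149 in NPC against 18.0 ± 11.6 in WT (SD, n = 4 each; adjusted p = 5.31e-05), and at 9 weeks its fold was 1.45 (95% CI 0.692 to 3.03; adjusted p = 0.532). Ackr3, a scavenging receptor for Cxcl12 and Cxcl11, was higher in NPC than in WT at 3, 6 and 9 weeks, by 8.88-fold, 15.4-fold and 11.3-fold. Ccr2, the receptor of Ccl2 and Ccl12, named after its values were seen, averaged 153 ± 11.2 in NPC and 330.4 ± 121 in WT at 9 weeks, a fold of 0.488 (95% CI 0.328 to 0.728; adjusted p = 0.00919). Under PLX5622, 0 of 14 receptors passed by limma, with 2 at an unadjusted p under 0.05, beside 1931 of 12877 genes.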

How the data were processed

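The authors deposited a signal for each gene in each library, namely its read count scaled by that library's size factor (a normalized count). FastQC 0.11.4, STAR 2.5.1b and DESeq2 with build mm9 were used, per the submitters' processing notes; the gene annotation and the counting tool are not given in the sources used here. Values were whole multiples of 1 step per library (100% within 1e-06), which gave whole reads for the count tests. Columns not used: 0. Of 24015 genes, 5501 were at 0 in all libraries. Reads carry no molecular identifiers, so limits from them cover counting error only.

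log2(normalized count + 1) was analysed with R 4.3.3 and limma 3.58.1 (trended and robust moderation; tests were two-sided). Genes reaching 10 normalized counts in 3 or more libraries were kept. Benjamini-Hochberg adjusted p under 0.05 over all genes tested was the threshold. The age and genotype comparisons came from 1 fit of 31 libraries (14046 genes, 23 residual degrees of freedom), PLX5622 against control from its 10 libraries (12877 genes, 8), and control against untreated NPC from all 41 (14312 genes, 31). Folds come from group means of log2(value + 1). The added 1 shrinks changes of low genes, whereas 1 library near 0 can enlarge a fold, as for Ccl5 at 6 weeks. Recovered reads were tested with edgeR 4.0.16 and, separately, DESeq2 1.42.0 as alternatives. In data simulated for NPC against WT at 6 weeks (13713 genes), the fit recovered 54% of genes changed 2-fold. It recovered 77% of those changed 4-fold, and 4.38% of its calls were false. The simulated counts were drawn independently around 1 mean per gene, without outlying libraries. Some real libraries did stand apart, so these rates need not hold for the data.

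Member genes and lists were chosen with earlier results of these data known. Per comparison of genotype or treatment, the text may name up to 4 called genes of each list of other ligands and receptors with the smallest adjusted p, and for each member the 3 genes with the highest Pearson correlation over 41 libraries. Same-letter NPC and WT libraries at 1 week had residuals correlated at 0.107 to 0.158, so the letters were taken to pair those libraries; the pairing comes from this correlation, not from the labels. Exon lengths are from GENCODE, and all 10 members matched RefSeq by symbol. Some results are not reported here.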

Additional observations from a re-analysis of the deposited data

Results flagged for a closer look

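In groups of 4 or 5 libraries, 6 of 90 gene-and-group values stood apart from the rest of their group, and chance gives about 1 in 20 groups. Ccl2 was 144 normalized counts in WT 6w replicate B, against 47.6 in the next library. Ccl4 was lowest in WT 6w replicate D, at 378, against 484 in the next. Ccl5 was 67.3 in NPC 1w replicate A, against 18.8 in the next. Ccl9 was 2811 in NPC 3w replicate C, against 886 in the next. Ccl12 was 23765 in PLX5622 replicate 2, against 8827 in the next, and 5795 in control replicate 2, against 2757 in the next.

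The genotype difference changed between 1 and 3 weeks, by the interaction test, for Cxcl10 (log2 3.54, adjusted p = 0.00438), Ccl12 (2.35, adjusted p = 0.015), Ccl2 (2.10, adjusted p = 0.0335) and Cxcl16 (1.11, adjusted p = 0.0482). In each case NPC minus WT was larger at 3 weeks. With the replicate letter as a block Cxcl16 did not pass (adjusted p = 0.0514). Of 30 alternatives, Ccl2 did not pass in 10 and Cxcl16 in 15, whereas Cxcl10 and Ccl12 passed in all 30.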

How the results depend on the processing

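Across 2860 alternative values of single chemokines, no called direction was reversed, 36 calls were lost and 73 were gained, and 259 of 286 counts of chemokines passed stayed within 1.5 times. For NPC at 9 against 3 weeks, where 0 passed, the count was 2 with libraries scaled to the same total, 1 with quantile normalization and 3 with library weights. It was 2 with edgeR, 3 with DESeq2 and 0 to 2 with 1 library left out. In that order 655, 677, 1212, 662, 1042 and 151 to 1203 of all genes passed, against 620. For WT at 9 against 3 weeks (0) the count was 1 with library weights, 1 with only the groups compared, and 0 to 1 with 1 library left out. In that order 479, 222 and 18 to 181 of all genes passed, against 67. For PLX5622 against control (0) the count was 1 with library weights, 4 with the replicate block and 2 with all 41 libraries. It was 3 with DESeq2 and 0 to 4 with 1 library left out. In that order 435, 416, 534, 605 and 21 to 465 of all genes passed, against 122. For NPC against WT at 1 week (0) the count was 1 with only the groups compared, beside 234 of 12836 genes. For the genotype difference at 3 weeks minus 1 week (4) the count was 7 with DESeq2 and 2 to 7 with 1 library left out. With 1 library left out, 62 to 420 of all genes passed, against 149. Over all genes, a fit of only the groups compared called 769 at 3 weeks and 4429 at 9 weeks between genotypes, against 3777 and 2665, and 20 in NPC at 9 against 3 weeks, against 620. DESeq2 called 479 in the interaction at 3 weeks, against 149, and 605 in the PLX5622 arm, against 122. Library weights called 4790 between genotypes at 9 weeks and 191 between control and untreated NPC, against 0 there. Without NPC 6w replicates B and C 872 were called at 6 weeks, against 2143. The causes were not tested.

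Outside 1 week, same-letter or same-number libraries did not all correlate above 0.1 in residuals, so there the block tests a shared label alone; in the PLX5622 arm 4 of 5 libraries correlated best with their own number, a hint from the data. Under the replicate block all genes called in that arm went to 416, from 122 without it, and for the genotype difference at 9 weeks minus 3 weeks to 8, from 64. With the block Ccl5 at 9 weeks (log2 1.79, adjusted p = 0.0827) and Cxcl16 in the interaction at 3 weeks (adjusted p = 0.0514) were lost, and Ccl4 and Ccl5 in that interaction were gained (adjusted p = 0.0463 and 0.0337). At 1 week the block changed no count of chemokines. At group sizes of 3 to 5 and the low level of Cxcl14 (under 135 normalized counts in every library), differences below the intervals given could not be resolved.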

Other observations

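Over the 41 libraries, where libraries of a group share its age and condition, levels of some pairs of these chemokines moved together, given here as a description. Pearson's r of log2 levels was 0.94 for Ccl2 and Ccl12, 0.92 for Ccl3 and Ccl4, 0.89 for Ccl5 and Cxcl10 and 0.86 for Ccl6 and Ccl9. After taking out group means it was 0.88, 0.94, 0.69 and 0.87. Ccl3 and Ccl4 overlap in RefSeq, and reads of the overlap may have been counted to either.

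Among 14312 genes, those closest to Cxcl10 in level were I830012O16Rik (r = 0.92), Oasl1 (0.91) and Ifit3 (0.91), and those closest to Ccl5 were Ifit3 (0.92), I830012O16Rik (0.92) and Usp18 (0.91). Ifit3, Oasl1 and Usp18 are interferon-induced genes. Closest to Cxcl16 were Slamf9 (0.95), Vcam1 (0.95) and Il1b (0.94). Closest to Ccl3 was Mt1 (0.93), ahead of Ccl4, and next to Ccl3 Ccl4 had Tuba4a (0.90) and Plaur (0.90). Beside Ccl2, Ccl12 had Fxyd5 (0.91) and Ehd1 (0.90), and beside Ccl12, Ccl2 had Ifi27l2a and Clic4 (0.88 each). Cxcl14 had no gene above Tjp3 (0.79).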
